A study of Mus musculus with 3 samples.

Results

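The genes described here were the G1 cyclins and the main inhibitors of their kinases, a set of 10 chosen by name: the D-type cyclin genes Ccnd1, Ccnd2 and Ccnd3, the E-type cyclin genes Ccne1 and Ccne2, the Cip/Kip inhibitor genes Cdkn1a and Cdkn1b, and the INK4 inhibitor genes Cdkn2a, Cdkn2b and Cdkn2c. All 10 were listed in each of the 3 count tables, of 22439 (mESC), 23371 (CPCC) and 24229 (CB) listed genes. Their levels were measured by single-cell RNA-seq in mouse embryonic stem cells (mESC), in the cardiac precursor cell cultures (CPCC) derived from them, and in beating cardiac bodies (CB). Every cell was male and carried the same F1 genotype, C57BL/6 x CAST/EiJ. The mESC grew in 2i medium with leukemia inhibitory factor, which holds the MEK inhibitor PD0325901 and the GSK3 inhibitor CHIR99021. CPCC passed through embryoid bodies, which formed in medium with ascorbic acid, and were then enriched over several passages in medium with Egf and Fgf2. CB were floating bodies kept in the medium with ascorbic acid and picked for their rhythmic beating. The study's lines came from several blastocysts and each was grown from a single cell. No label says which clone a cell or pool holds, and the mESC label names a triplicate.

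Passage from G1 into S phase is driven by cyclin-dependent kinases. D-type cyclins bind Cdk4 and Cdk6, E-type cyclins bind Cdk2, and both kinds of complex phosphorylate the retinoblastoma protein and so release E2F transcription factors. INK4 proteins bind Cdk4 and Cdk6 and keep D-type cyclins from them, and Cip/Kip proteins bind cyclin-kinase complexes of both kinds. Mouse embryonic stem cells are known for a short G1 phase and for cyclin E activity through most of the cycle, while cells that differentiate lengthen G1.

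Cells numbered 215 for mESC, 175 for CPCC and 232 for CB, with a median of 1397869 to 1528316 counts per cell. There was 1 sample per culture, so no difference between cultures was tested and no p-value is given. By their column names, the libraries fell into 3 pools in mESC, 2 in CPCC and 3 in CB. Pools are not labelled as replicates, and their values are given to show the spread within a culture. No cell column was shared between tables and no 2 columns were identical. Cells were not called as doublets by any tool. Levels are CPM: the counts of a gene summed over cells, divided by all counts of these cells and multiplied by 1000000. A share of cells is the share with at least 1 count, given after each cell was thinned to 430000 counts (193 mESC, 157 CPCC and 210 CB cells were deep enough). Intervals are exact Clopper-Pearson intervals at 95% for shares. The exact Poisson interval of a summed level was at most 14.3% of the level on either side. Reads had no molecular identifiers, so both kinds of interval cover counting error only. The labelled cell types were checked against marker lists. The 10 pluripotency markers summed to 10579 CPM in mESC and 3397 CPM in CPCC, and the 8 of them listed in CB, where Pou5f1 and Dppa5a were not, to 249 CPM. The label of CB speaks of mature cardiac cells, but 12 cardiomyocyte markers summed to 590 CPM there (23.8 to 1354 in the pools), beside 9483 CPM for 10 fibroblast markers, and none of the 12 was found in most cells of any CB cluster.

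A difference between cultures is the log2 of the ratio of CPM + 1, a scale on which low genes appear to change less than they do, and a gene was called when it passed 2-fold. Against mESC, 3 of the 10 genes were higher in CPCC (Ccnd1, Ccnd2, Cdkn2b) and 0 were lower. Over the 15471 genes with at least 1 CPM in either culture, 17.5% were called higher and 8.36% lower. The median log2 ratio was 0.79 over the 10 genes and -0.01 over all of these genes. In CB against mESC, 4 genes were higher (Ccnd2, Cdkn1b, Cdkn2b, Cdkn2c) and 1 was lower (Ccne1), where 30.8% and 14.0% of 16018 genes were. Here the medians were -0.01 for the 10 genes and 0.29 for all. In CB against CPCC, 1 gene was higher (Cdkn1b) and 4 were lower (Ccnd1, Ccne1, Ccne2, Cdkn2b), where 21.3% and 9.44% of 16764 genes were. The medians were -0.39 and 0.22. Pools that do not overlap give another view. In CPCC against mESC, 5 genes had all pools higher and 1 all pools lower, where 22.6% and 21.5% of genes did. In CB against mESC these were 2 and 2 genes (29.6% and 20.7% of all), and in CB against CPCC 1 and 3 (20.7% and 11.1%). The 3 comparisons share cultures and are not independent. TMM factors moved the median of all genes in CB against mESC from 0.29 to 0.11, and in CB against CPCC from 0.22 to 0.04, and the call of none of the 10 genes changed with them or with DESeq2 size factors.

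**Figure D1:**
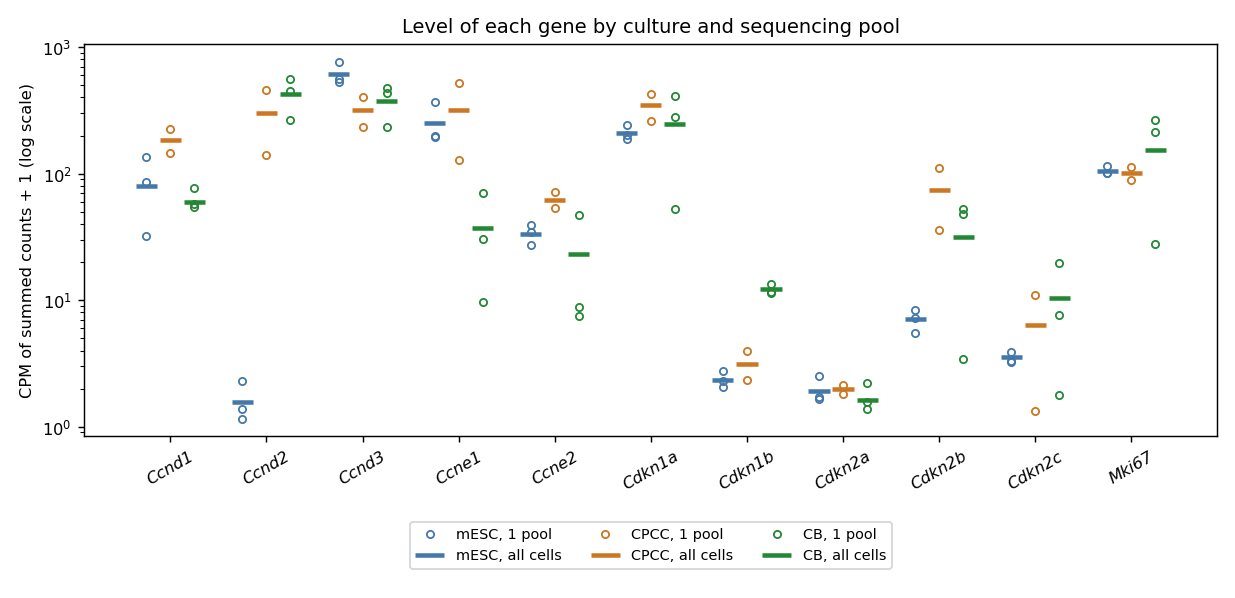
Summed level of each of the 10 genes and of Mki67, as CPM + 1 on a log axis, in mESC, CPCC and CB. Bars are all cells of a culture and circles are its pools of libraries. Ccnd2 lies near the bottom of the axis in every mESC pool and at 139 CPM or above in every pool of CPCC and CB, and Ccne1 is lowest in the 3 CB pools.

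The 3 D-type cyclin genes differed most between cultures in Ccnd2. Ccnd2, whose product activates Cdk4 and Cdk6 (chr6:127125162-127152193, minus strand, GRCm38), had 0.558 CPM in mESC against 302 CPM in CPCC and 422 in CB. The pools gave 0.371, 0.160 and 1.29 CPM in mESC, 139 and 454 CPM in CPCC, and 447, 262 and 559 CPM in CB, so the mESC pools lay far below all others. The log2 ratio was 7.60 for CPCC and 8.09 for CB against mESC. A share of 3.11% (1.15 to 6.64) of mESC had the gene, which is 6 of 193 cells, and 67.9% of its mESC counts came from 1 cell. The shares were 57.3% (49.2 to 65.2) in CPCC and 80.0% (73.9 to 85.2) in CB. In cells with the gene, the median level was 5.25 CPM in mESC against 115 CPM in CPCC and 289 in CB, so both the share of cells and the level within them were higher in the derived cultures. Without the second CPCC pool the ratio to mESC was 6.49, and without the first it was 8.19. CB and CPCC differed by a log2 ratio of 0.48, with overlapping pools, and this was 1.59 without the second CPCC pool and -0.10 without the first. Reads of Ccnd2 cannot be told apart from those of Gm43126 and 9330179D12Rik on the other strand, since the use of strand was not stated.

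Ccnd1, the D-type cyclin that responds to growth factor signals (chr7:144929931-144939925, minus strand), had 78.6 CPM in mESC against 184 CPM in CPCC and 58.6 in CB. Its mESC pools were wide apart, at 84.4, 31.1 and 136 CPM. The CPCC pools held 224 and 146 CPM and the CB pools 75.5, 56.1 and 53.6 CPM, so each CPCC pool lay above every mESC and CB pool. The log2 ratio of CPCC to mESC was 1.22, and it was 0.75 without the second mESC pool and 0.88 without the first CPCC pool, under 2-fold in both cases. CB against CPCC had a log2 ratio of -1.63. CB against mESC was at -0.42, and at 0.09 without the third mESC pool. Ccnd1 was found in 80.3% of mESC (74.0 to 85.7), 91.7% of CPCC (86.3 to 95.5) and 36.7% of CB (30.1 to 43.6). Among cells with Ccnd1, however, the median was 60.0 CPM in mESC and 111 CPM in CB, while the share of cells with the gene was lower in CB. Ccnd1 overlaps LTO1 on the other strand.

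Ccnd3, another activator of Cdk4 and Cdk6 (chr17:47505051-47599691, plus strand), was found in nearly all cells, at 99.5% of mESC, 93.0% of CPCC and 91.0% of CB. It had 613 CPM in mESC against 315 CPM in CPCC and 372 in CB. The mESC pools (764, 533 and 557 CPM) lay above both CPCC pools (405 and 231 CPM) and above the CB pools (429, 233 and 476 CPM). The log2 ratios to mESC were -0.96 for CPCC and -0.72 for CB, neither past 2-fold. CPCC passed it at -1.40 without its first pool, and at -1.07 without the second mESC pool and -1.01 without the third, and CB passed it at -1.05 without the third CB pool. Reads can be shared with the processed copy Ccnd3-ps, which was listed at 1.57 to 3.71 CPM in the 3 cultures. Over cells, Ccnd3-ps was the gene most like Ccnd3 in each culture, with a mean Spearman rho within pools of 0.68 in mESC, 0.67 in CPCC and 0.75 in CB.

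Per kilobase of the principal transcript (GENCODE vM21), the summed level of the 3 D-type genes came to 311 CPM per kb for mESC, 246 for CPCC and 259 for CB. Ccnd3 gave 93.2% of it in mESC, 60.6% in CPCC and 68.1% in CB. Ccnd2 gave 0.0283%, 19.4% and 25.8% in the same order, and Ccnd1 gave 6.75%, 20% and 6.06%. The choice of length mattered. Over the union of all exons Ccnd3 gave 80.7% of the sum in mESC, 33.6% in CPCC and 42.5% in CB. Cell by cell, Ccnd3 was the highest D-type gene per kilobase of principal transcript in 99.0% of mESC, 73.9% of CPCC and 73.3% of CB. Ccnd2 led in 0 of 193 mESC, which allows a share of up to 1.55% (3 of 193 cells), and in 9.55% (5.45 to 15.3) of CPCC and 23.8% (18.2 to 30.2) of CB. With union lengths, Ccnd3 led in 94.8% of mESC, in 30.6% of CPCC, where Ccnd1 then led in 50.3%, and in 51.0% of CB.

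The genes combined differently in single cells. In mESC, 78.2% of cells (71.7 to 83.8) had Ccnd1 and Ccnd3 without Ccnd2, and 18.1% had Ccnd3 alone. In CPCC, 52.9% (44.8 to 60.9) had all 3 genes and 35.0% had Ccnd1 and Ccnd3. The largest class in CB, at 42.4% (35.6 to 49.4), had Ccnd2 and Ccnd3 without Ccnd1, and 30.5% had all 3. Cells with none of them were 0.518% of mESC, 2.55% of CPCC and 1.90% of CB.

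**Figure D2:**
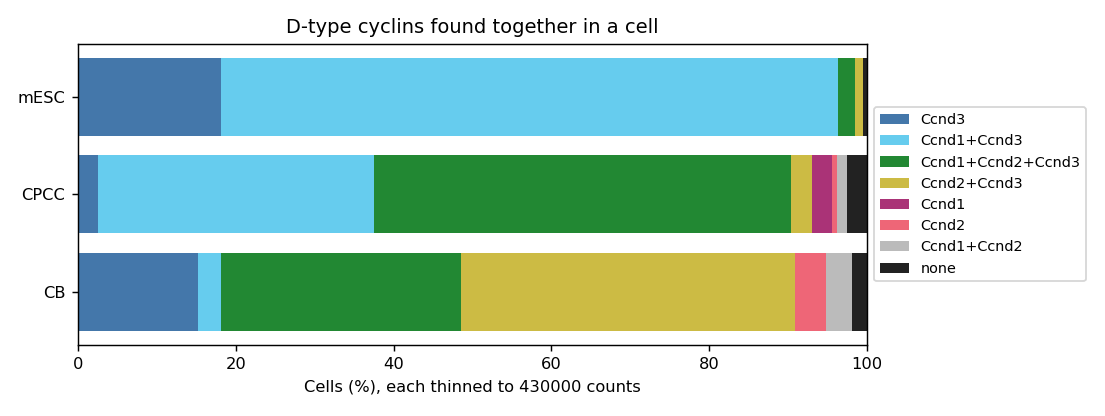
D-type cyclin genes found together in a cell, as the share of cells in mESC, CPCC and CB after thinning each cell to 430000 counts. The class with Ccnd1 and Ccnd3 makes up 78.2% of mESC and 2.86% of CB, and the class with Ccnd2 and Ccnd3 makes up 1.04% of mESC and 42.4% of CB.

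Both E-type cyclin genes had their lowest level in CB. Ccne1, whose product activates Cdk2 at the entry into S phase (chr7:38097984-38107534, minus strand), had 249 CPM in mESC against 317 CPM in CPCC and 36.0 in CB. By pool it had 367, 192 and 199 CPM in mESC, 519 and 127 CPM in CPCC, and 29.5, 68.8 and 8.67 CPM in CB. The highest CB pool was below the lowest pool of mESC and of CPCC, and the CPCC pools lay on both sides of those of mESC. The log2 ratio of CB was -2.76 to mESC and -3.10 to CPCC, and with 1 pool left out it ranged from -3.97 to -2.13 and from -4.31 to -1.79. CPCC against mESC was 0.34, and -0.97 without the first CPCC pool and 1.06 without the second. Cells with Ccne1 were 95.9% (92.0 to 98.2) of mESC, 82.2% (75.3 to 87.8) of CPCC and 20% (14.8 to 26.1) of CB. In the CB cells that had it, the median level was 126 CPM, beside 230 CPM in mESC and 271 CPM in CPCC.

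Ccne2, the second activator of Cdk2 (chr4:11191351-11204779, plus strand), had 32.6 CPM in mESC against 61.4 CPM in CPCC and 22.3 in CB. Both CPCC pools (70.5 and 52.8 CPM) were above the mESC pools (26.1, 33.4 and 38.6 CPM) and the CB pools (7.82, 46.4 and 6.50 CPM). The ratio of CB to CPCC was -1.42, and -0.83 without the third CB pool, below 2-fold, or -2.98 without the second. CPCC was at 0.89 against mESC, and at 1.09 without the second CPCC pool. CB was at -0.53 against mESC, and its sign turned with the pool that was left out, from -2.09 to 0.06. Ccne2 was found in 57.0% of mESC, 64.3% of CPCC and 20% of CB (14.8 to 26.1), and both E-type genes were found together in 55.4% of mESC, 58.6% of CPCC and 8.57% of CB. The second CB pool held most of these cells: 42.3% and 50% of its cells had Ccne1 and Ccne2 before thinning, against 4.71% and 7.06% in the third. Per kilobase, Ccne1 made up 92.0% of the E-type level in mESC, 88.6% in CPCC and 70.8% in CB.

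Cdkn1a, which encodes p21, a Cip/Kip inhibitor and a classical target of p53 (chr17:29090976-29100727, plus strand), had 209 CPM in mESC against 346 CPM in CPCC and 247 in CB. The mESC pools were close together, at 186, 202 and 242 CPM, the CPCC pools held 258 and 429 CPM, and the CB pools were spread over 281, 51.9 and 410 CPM. No pair passed 2-fold, with log2 ratios of 0.73 for CPCC and 0.24 for CB against mESC. These values leaned on single pools: CPCC against mESC was 1.03 without the first CPCC pool, CB against mESC was -0.73 without the third CB pool and 0.83 without the second, and CB against CPCC, at -0.49, was -1.46 and 0.10 without them. It was found in 99.0% of mESC (96.3 to 99.9), 82.2% of CPCC (75.3 to 87.8) and 56.2% of CB (49.2 to 63.0). Levels over cells were also less even outside mESC: a single cell gave 15.4% of the CPCC counts and 3.43% of the mESC counts. The median cell had 175 CPM in mESC against 82.2 CPM in CPCC and 36.9 in CB, an order that the summed levels do not show.

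RefSeq places 2 start sites at Cdkn1a, 2790 bases apart, and promoter windows of 300 bases (250 before the start and 50 after) were at hand for both and for 7 of the 10 genes in all. The upstream window is shown because paired CATG cores of the kind found in p53 response elements lie in it, 48 bases before the start and in capitals here (5′ to 3′, plus strand, chr17:29090729-29091028, GRCm38.p6):
Cdkn1a upstream start: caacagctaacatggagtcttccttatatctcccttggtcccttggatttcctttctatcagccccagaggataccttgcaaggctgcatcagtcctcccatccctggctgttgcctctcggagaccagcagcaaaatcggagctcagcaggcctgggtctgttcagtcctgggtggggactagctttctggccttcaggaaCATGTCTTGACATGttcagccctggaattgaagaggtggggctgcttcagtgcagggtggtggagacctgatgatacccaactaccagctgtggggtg
The letters searched were CATGNNNNNNCATG, which read the same on both strands. They were chosen after the sequences were seen, and 0.712% of 32851 promoter windows hold them. The downstream window of Cdkn1a and the windows of the 12 p53 pathway genes with an entry held none. A match is a description of the sequence and no measurement of binding.

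Over cells, Cdkn1a was compared with genes of the p53 pathway. Among genes detected in at least 25% of cells, those most like Cdkn1a in CPCC were Phlda3, Ccng1 and Lpp, with mean rho within pools of 0.71, 0.66 and 0.61. Phlda3, a p53 target that restrains Akt, and Ccng1, the p53 target cyclin G1, are both on the p53 pathway list of 15 genes. Of the 14 list genes detected often enough in CPCC, 9 had a rho of at least 0.2 with Cdkn1a, where 19.7% of 12154 genes did. Trp53 itself had a rho of -0.34. In mESC the count was 4 of 13 genes, with a highest rho of 0.26, where 1.89% of 12093 genes reached 0.2. In CB it was 6 of 11, with a highest rho of 0.49, where 5.24% of 9924 genes did. The genes most like Cdkn1a in CB were Cldn4, Krt7 and Cdh1, which are epithelial junction and keratin genes, at 0.60, 0.53 and 0.52. Epithelial markers, 10 of 10 listed, summed to 968 to 4951 CPM in the CB pools and 561 to 1897 CPM in the CPCC pools. Of these 10 genes, 8 were listed in mESC, with 371 to 400 CPM over its pools. Their part in the level of Cdkn1a was not tested. These correlations rest on 169 CPCC, 203 mESC and 219 CB cells with at least 100000 counts, which share a culture and its pools and differ in depth, and they carry no p.

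Cdkn1b, which encodes p27, the other Cip/Kip inhibitor of the set (chr6:134920401-134925513, plus strand), was low in every culture, with 1.32 CPM in mESC against 2.16 CPM in CPCC and 11.3 in CB. The CB pools gave 10.6, 10.4 and 12.4 CPM. All of them lay above the mESC pools (1.28, 1.04 and 1.74 CPM) and the CPCC pools (1.32 and 2.94 CPM), and the CB pools of no other inhibitor gene of the set were as close together, by their ratio of highest to lowest. The log2 ratio of CB was 2.40 to mESC and 1.96 to CPCC. With a pseudocount of 10 CPM, which weighs down low genes, these were 0.91 and 0.81. Cells with the gene were 22.3% (16.6 to 28.8) of mESC, 18.5% (12.7 to 25.4) of CPCC and 36.7% (30.1 to 43.6) of CB, and their median was 2.91, 5.59 and 11.8 CPM in that order. Per kilobase, Cdkn1a made up 99.7% of the Cip/Kip level of the set in mESC and CPCC and 98.0% in CB. Cdkn1c, the remaining Cip/Kip gene, is no member of the set and was higher in both derived cultures, with 0.296 CPM in mESC against 3.67 CPM in CPCC and 34.4 in CB.

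**Figure D3:**
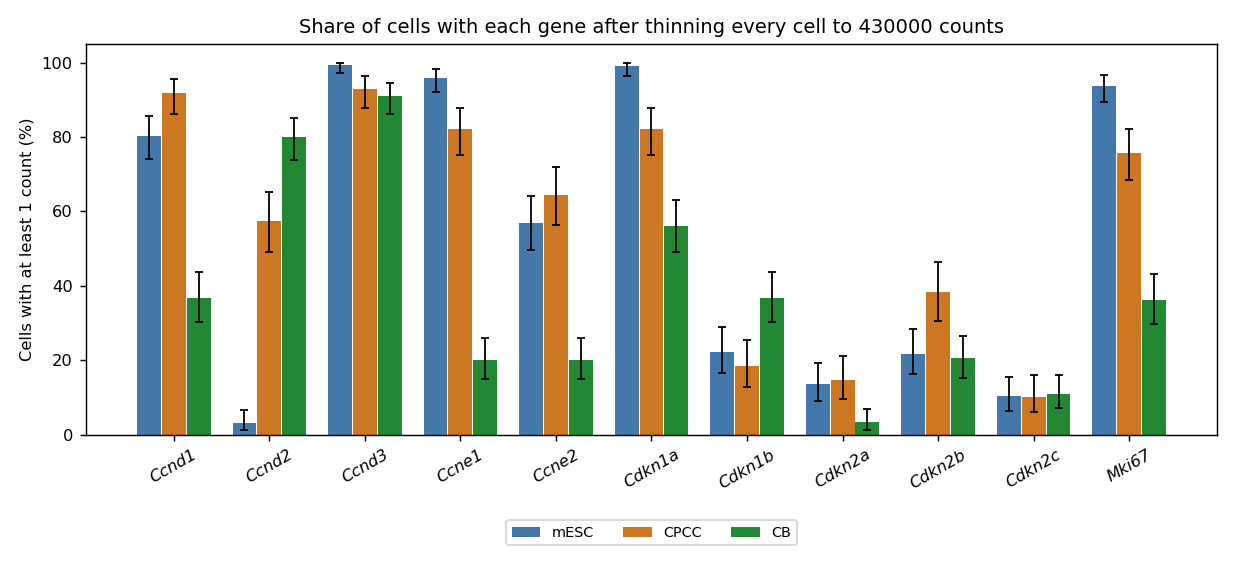
Share of cells with at least 1 count of each gene in mESC (193 cells), CPCC (157) and CB (210) after thinning to 430000 counts, with exact 95% intervals. Ccne1, Ccne2, Ccnd1, Ccnd3, Cdkn1a, Cdkn2a and Mki67 are found in a smaller share of CB than of mESC, and Ccnd2 and Cdkn1b in a larger one.

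The 3 INK4 genes of the set had low levels in mESC, and Cdkn2b had the largest level of the 3 in CPCC and CB. Cdkn2b, which encodes p15 and is known to respond to TGF-beta (chr4:89306299-89311039, minus strand), had 6.05 CPM in mESC against 73.3 CPM in CPCC and 30.6 in CB. The pools held 7.29, 6.24 and 4.45 CPM in mESC, 34.5 and 110 CPM in CPCC, and 51.6, 2.43 and 47.2 CPM in CB. Both CPCC pools were above all mESC pools, whereas the second CB pool was below them. The log2 ratios to mESC were 3.40 for CPCC, or 2.33 without its second pool, and 2.16 for CB, or 1.45 to 2.81 with 1 of its pools left out. The ratio of CB to CPCC was -1.23, and it was not past 2-fold without the second CPCC pool, at -0.17, or without the second CB pool, at -0.58. Cells with Cdkn2b were 21.8% (16.2 to 28.3) of mESC, 38.2% (30.6 to 46.3) of CPCC and 20.5% (15.2 to 26.6) of CB. The median in such cells was 15.9 CPM in mESC against 52.0 CPM in CPCC and 93.9 in CB, so in CB the higher level lay within a share of cells like that of mESC.

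Cdkn2a, which encodes the Cdk4 and Cdk6 inhibitor p16 and, from another start, the p53 activator p19Arf (chr4:89274471-89294653, minus strand), stayed near 1 CPM, at 0.917 in mESC, 0.978 in CPCC and 0.612 in CB. Its pools overlapped in each pair of cultures, at 0.641 to 1.5 CPM in mESC, 0.809 and 1.14 CPM in CPCC, and 0.371 to 1.20 CPM in CB. Cells with a count were 13.5% (8.99 to 19.1), 14.6% (9.52 to 21.2) and 3.33% (1.35 to 6.75) in that order. These were 207 to 322 counts per culture, and no difference in level was detectable at this depth between mESC and CPCC: the Poisson intervals ran from 0.819 to 1.02 CPM and from 0.865 to 1.10 CPM. The interval of CB, from 0.531 to 0.701 CPM, lay below both, although its pools overlapped theirs. The gene counts do not separate the products. The starts lie 12427 bases apart and Cdkn2b starts 16413 bases from the nearer of them. The windows of the 3 starts are shown because these neighbours differed in level: per kilobase of principal transcript, Cdkn2b was at 52.7 CPM and Cdkn2a at 1.09 CPM in CPCC, and at 4.35 and 1.02 CPM in mESC. Capitals mark 8-letter E2F motifs (TTTGGCGC, TTTCGCGC, TTTCCCGC or TTTGCCGC on either strand), which 2.26% of all windows hold. The sequences are 5′ to 3′ on the minus strand, in the order Arf start (chr4:89294570-89294869), p16 start (chr4:89282143-89282442) and Cdkn2b (chr4:89310983-89311282):
Cdkn2a, Arf start: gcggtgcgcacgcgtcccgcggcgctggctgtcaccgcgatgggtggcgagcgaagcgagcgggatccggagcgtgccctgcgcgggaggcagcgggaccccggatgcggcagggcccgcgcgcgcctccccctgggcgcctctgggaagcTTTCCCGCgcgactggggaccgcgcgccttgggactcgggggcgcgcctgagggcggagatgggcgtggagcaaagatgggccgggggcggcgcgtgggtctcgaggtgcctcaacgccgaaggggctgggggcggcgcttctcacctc
Cdkn2a, p16 start: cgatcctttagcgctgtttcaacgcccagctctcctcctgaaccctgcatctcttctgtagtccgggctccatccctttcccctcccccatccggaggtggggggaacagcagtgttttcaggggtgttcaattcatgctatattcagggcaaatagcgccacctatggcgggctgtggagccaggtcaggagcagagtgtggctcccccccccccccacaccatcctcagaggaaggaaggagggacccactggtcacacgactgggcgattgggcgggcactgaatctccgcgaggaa
Cdkn2b: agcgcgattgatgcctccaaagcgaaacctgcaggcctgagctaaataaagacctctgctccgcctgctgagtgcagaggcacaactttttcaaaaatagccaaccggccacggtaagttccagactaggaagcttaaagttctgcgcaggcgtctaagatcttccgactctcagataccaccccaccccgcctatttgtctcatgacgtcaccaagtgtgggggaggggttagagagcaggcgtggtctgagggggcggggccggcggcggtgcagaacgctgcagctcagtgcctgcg
The match lies 99 bases before the Arf start, and the other 2 windows and that of Ccne1 held none of these letters.

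Cdkn2c, which encodes the INK4 inhibitor p18 (chr4:109660876-109667189, minus strand), was rare in all cultures, at 10.4% of mESC, 10.2% of CPCC and 10.95% of CB. Its summed level was 2.53 CPM in mESC against 5.35 CPM in CPCC and 9.46 in CB. The pools ranged widely outside mESC, over 0.322 and 10.1 CPM in CPCC and 6.61, 0.765 and 18.7 CPM in CB, and overlapped those of mESC (2.26, 2.91 and 2.30 CPM). CB was past 2-fold against mESC with a log2 ratio of 1.57, which was 0.05 without the third CB pool and 0.64 with a pseudocount of 10 CPM. A single cell held 36.4% of the CB counts, and the level without it was 6.03 CPM. CPCC against mESC was 0.85, and 1.65 or -1.42 without the first or the second CPCC pool. CB against CPCC was 0.72, and its sign turned with the pool that was left out: it was 2.98 without the second CPCC pool, 1.34 without the second CB pool, -0.08 without the first CPCC pool and -0.80 without the third CB pool. The summed level cannot tell fewer cells with a gene from less RNA in each, but here the shares were within each other's intervals and the median in cells with the gene was 16.1, 36.9 and 49.1 CPM. Per kilobase, Cdkn2b made up 68.0% of the INK4 level of the set in mESC, 94.2% in CPCC and 83.0% in CB. Cdkn2d, the remaining INK4 gene, which encodes p19, is no member of the set. It had 37.8 CPM in mESC against 27.3 CPM in CPCC and 33.0 in CB, within 2-fold in each comparison.

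Proliferating cells were marked by Mki67, which encodes the nuclear antigen Ki-67. Mki67 had 104 CPM in mESC against 100.5 CPM in CPCC and 154 in CB, but was found in 93.8% (89.4 to 96.7) of mESC, 75.8% (68.3 to 82.3) of CPCC and 36.2% (29.7 to 43.1) of CB. Its CB pools held 212, 265 and 26.8 CPM. All of the 13 other proliferation genes of the list were past 2-fold lower in CB than in mESC, where 14.0% of all genes were, with ratios that included -2.36 for Rrm2, -2.14 for Ccnb1 and -1.43 for Pcna, whereas Mki67 was at 0.56. Over cells, Mki67 tracked these 13 genes in CPCC (median rho 0.52, 13 of 13 at 0.2 or above) and in CB (0.62, 12 of 13), where 20% and 25.3% of all genes were at 0.2 or above. In mESC the median was 0.09, with 6 of 13 at 0.2 or above against 1.16% of all genes.

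Relations of the 10 genes to Mki67 were read from Spearman's rho over cells with at least 100000 counts, for genes found in at least 25% of cells. In mESC, 0 of 6 such genes had a rho of 0.2 or beyond in either direction, where 1.16% of 12093 genes were at 0.2 or above and 0.141% at -0.2 or below. In CPCC, 1 of 7 was at 0.2 or above (Ccne1) and 3 at -0.2 or below (Ccnd2, Cdkn1a, Cdkn2b), where 20% and 6.89% of 12154 genes were. In CB, 0 of 5 were at 0.2 or above and 2 at -0.2 or below (Ccnd3, Cdkn1a), where 25.3% and 3.42% of 9924 genes were. Cells of a culture share its pools and differ in depth, and no p is given.

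**Figure D4:**
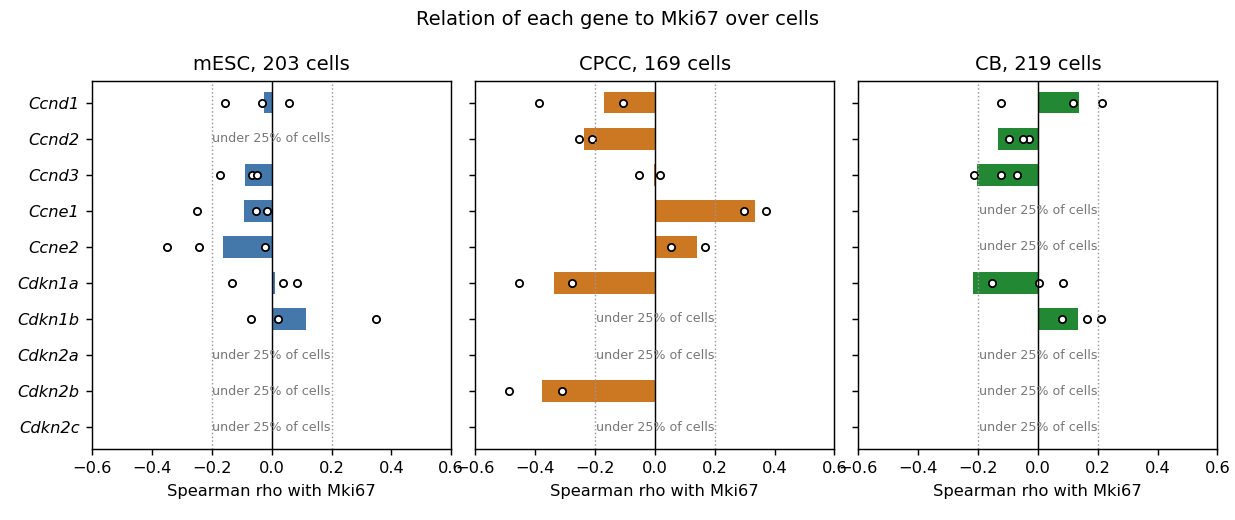
Spearman rho of each gene with Mki67 over cells with at least 100000 counts in mESC, CPCC and CB. Bars are all such cells, circles are single pools, and dotted lines mark a rho of 0.2 in either direction. In CPCC the bars of Ccne1 (0.34) and of Cdkn1a (-0.34) and Cdkn2b (-0.38) lie on opposite sides, and their pools lie on the same side as the bar.

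In CPCC these relations had 1 sign in both pools. Ccne1 had a rho of 0.34 with Mki67, and 0.30 and 0.37 in the pools. Cdkn2b was at -0.38 (-0.49 and -0.31), Cdkn1a at -0.34 (-0.45 and -0.28) and Ccnd2 at -0.24 (-0.21 and -0.25). The cells were then split by whether they had Mki67. Ccne1 had 420 CPM in 119 CPCC with Mki67 and 51.8 CPM in 38 without, at 92.4% (86.1 to 96.5) and 50% (33.4 to 66.6) of the cells. Cdkn1a had 189 CPM with Mki67 and 674 CPM without, and Cdkn2b had 30.7 CPM and 188 CPM. The same order held in each CPCC pool, with 14.7 and 152 CPM of Cdkn2b in the first and 52.7 and 196 CPM in the second, although the first pool had only 7 cells without Mki67. Among the CPCC with Mki67 alone, the rho was -0.06 for Ccne1 and 0.03 for Ccnd2, so for these genes the relation lay between cells with and without Mki67. It stayed below 0 for Cdkn1a (-0.15) and Cdkn2b (-0.20), and it was -0.32 for Ccnd1 and -0.20 for Ccnd3. Cdkn2a, found in 19.5% of the CPCC and so under the limit of 25%, had a rho of -0.28 with Mki67 over all cells, and -0.37 and -0.24 in the pools. It was found in 10.1% (5.32 to 17.0) of CPCC with Mki67 and in 28.9% (15.4 to 45.9) of those without. Cdkn1b and Cdkn2c were also under the limit, at -0.01 and 0.10.

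Within CPCC the genes also moved with each other. Cdkn1a and Cdkn2b had a rho of 0.56 (0.51 to 0.58 in the pools), Ccnd2 and Cdkn2b 0.57 (0.38 to 0.66), and Ccnd2 and Cdkn1a 0.46 (0.35 to 0.51). Ccne1 was on the other side, at -0.39 with Cdkn1a (-0.57 to -0.08) and -0.36 with Cdkn2b (-0.47 to -0.10), and at 0.41 with Ccne2. The genes most like Ccne1 in CPCC were Hells, a chromatin remodeller, Mcm5, a subunit of the replicative helicase, and Pola2, a subunit of DNA polymerase alpha, at 0.73, 0.71 and 0.69. Those most like Ccnd2 were Rbms3, Cdh2 and Vim, at 0.65, 0.64 and 0.63, and those most like Cdkn2b were Bmp1, Ccn4 and Prss23, at 0.71, 0.67 and 0.66. Cdh2 and Vim encode N-cadherin and vimentin, which mark mesenchymal cells, and Bmp1 encodes a protease that matures collagen. With all 14 proliferation genes, Ccne1 had a rho of at least 0.2 and Cdkn1a and Cdkn2b had one of -0.2 or below, with medians of 0.60, -0.38 and -0.36. Of 12154 genes, 43.2% were at 0.2 or above with Ccne1, and 18.3% and 19.7% at -0.2 or below with Cdkn1a and Cdkn2b. Ccnd2 was at -0.2 or below for 12 of the 14, where 16.7% of all genes were. For Ccnd3, Ccne2 and Ccnd1 the median rho with the 14 genes was 0.24, 0.21 and 0.11.

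In CB the relations depended on the pools. Cdkn1a was at -0.22 over all cells but at -0.15, 0.005 and 0.08 in the pools. Ccnd3 was at -0.20, just past the limit, and at -0.07, -0.12 and -0.21 in the pools. Ccne1 (0.29) and Ccne2 (0.31) were found in under 25% of CB, and their mean rho within pools was 0.17 and 0.14. By pool it was 0.03, 0.01 and 0.42 for Ccne1 and 0.13, -0.06 and 0.33 for Ccne2, so the third pool had the highest values. Cdkn2c, also found in under 25% of CB, was at 0.17 over all cells and at 0.56, 0.14 and 0.05 in the pools. In the first pool it was found in 34.8% of 23 cells with Mki67 and in 0 of 33 without, which allows a share of up to 9.09% (3 of 33). In the second it was found in 6.12% and 4.55% of the cells. Mki67 and both E-type genes were common in the second pool and rare in the third, where 4 of 83 cells of sufficient depth had Mki67. In that pool 2 of these 4 cells had Ccne1 and 0 of 79 cells without Mki67 did, which allows a share of up to 3.8% (3 of 79). Ccnd1 and Ccnd2 were each the gene most like the other in CB, with a mean rho of 0.42 within pools (0.29 to 0.48).

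In mESC, where nearly all cells had Mki67, some of the genes had a larger rho with each other than any had with Mki67. Ccnd3 and Ccne1 had a rho of 0.53 (0.28 to 0.59 in the pools), and Ccnd1 and Ccne1 had 0.32. Cdkn1b was at -0.26 with Ccne1 (-0.31 to -0.08). With the 14 proliferation genes, the median rho in mESC was 0.21 for Ccnd3, 0.18 for Ccnd1 and 0.15 for Ccne1. It was 0.06 for Cdkn1a, 0.04 for Ccne2 and -0.05 for Cdkn1b. These medians were not set beside those over all genes. The genes most like Ccne1 were Phb2, a prohibitin, Rrm2, a subunit of ribonucleotide reductase, and Nolc1, a nucleolar protein, at 0.54, 0.50 and 0.49. The gene most like Ccne2 in both mESC (0.42) and CPCC (0.47) was Slbp, which binds the stem-loop of histone mRNA in S phase. Cdkn1a was found together with Mki67 in 92.7% (88.1 to 96.0) of mESC, 60.5% (52.4 to 68.2) of CPCC and 15.2% (10.7 to 20.8) of CB.

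Cells of each culture were clustered, and the values below describe the clusters and are no test, since the clustering used these cells and their variable genes. CPCC fell into 5 clusters. Cluster 0 (66 cells, pluripotent-like, with all 10 pluripotency markers in most cells) had 658 CPM of Ccne1, 41.5 CPM of Ccnd2, 81.4 CPM of Cdkn1a and 14.1 CPM of Cdkn2b. Cluster 1 (55 cells, led by Fbln5, Mgp and Col1a2, unnamed) had 86.9 CPM of Ccne1, 633 CPM of Ccnd2, 769 CPM of Cdkn1a and 178 CPM of Cdkn2b. Ccne1 was thus higher in cluster 0, and Ccnd2, Cdkn1a and Cdkn2b in cluster 1. The first CPCC pool gave 57 cells to cluster 0 and 19 to cluster 1, the second 9 and 36. In most cells of cluster 1, 4 of 5 smooth muscle and 3 of 10 fibroblast markers were found, and these lists summed to 4045 to 7294 CPM and 111 to 943 CPM in the CPCC pools. Their part in the levels of Ccnd2, Cdkn1a and Cdkn2b was not tested. Ccnd1 had 209 and 207 CPM in clusters 0 and 1 over both pools, but within each pool it was higher in cluster 1. The values were 218 and 267 CPM in the first pool and 87.2 and 177 CPM in the second. There cluster 0 had only 9 cells, and 1 of them held 49.6% of its Ccnd1 counts. Cluster 2 (30 cells, led by Fgf8 and Fgf5, unnamed) held 295 CPM of Ccne1 and 380 CPM of Ccnd2, of which 96.9% came from 1 cell. Cluster 3 (14 cells, macrophage-like, all in the second pool) had 97.5 CPM of Ccnd1 and 28.1 CPM of Ccnd2, and cluster 4 (10 cells of low depth led by mitochondrial genes, unnamed) had 18.9 CPM of Ccne2 from 1 cell and at most 1.02 CPM of any other gene of the set.

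CB also gave 5 clusters. Cluster 0 (87 cells, led by Car14 and Sall4, unnamed) and cluster 4 (20 cells, endothelial-like) had Mki67 at 321 and 249 CPM, Ccne1 at 68.6 and 56.3 CPM and Ccne2 at 40.2 and 52.2 CPM. In clusters 1 to 3 Mki67 was at 0.967 to 47.1 CPM, Ccne1 at 4.32 to 20.2 CPM and Ccne2 at 3.72 to 7.98 CPM. Ccnd3 was highest in cluster 1 (44 cells, fibroblast-like), with 690 CPM, and lowest in cluster 0, with 201 CPM. In the first pool, however, cluster 3 was above cluster 1, with 577 CPM against 519 CPM. Cluster 2 (43 cells, epithelial-like, led by Cyp2f2 and Krt4) had the highest level of Cdkn1a at 806 CPM, found in all of its cells, of Ccnd2 at 948 CPM and of Cdkn1b at 21.7 CPM. For Cdkn1b this order did not hold in the first pool. Cluster 2 had 10.4 CPM there, 82.5% of it from 1 cell, against 13.6 CPM in cluster 0 and 10.8 CPM in cluster 3. Cluster 3 had 38 cells, was led by Dlk1 and held 9 of 10 fibroblast markers in most cells, as did cluster 1. Cdkn2b was at 32.9, 64.5 and 74.0 CPM in clusters 1, 2 and 3, and at 2.19 and 3.64 CPM in clusters 0 and 4. Cdkn2c, with 33.0 CPM, was highest in cluster 1, where 46.7% of its counts came from 1 cell. All of these counts came from the third pool. In the first pool cluster 1 had 0 CPM of Cdkn2c and cluster 0 had 23.0 CPM. The second CB pool gave 58 of its cells to cluster 0 and all 20 of cluster 4, and none to clusters 1 to 3, so cluster 4 and that pool cannot be told apart. Cluster 0 was compared with clusters 1 to 3 within the other pools, where it had 23 cells in the first pool and 6 in the third pool. Mki67 was at 653 CPM in cluster 0 against at most 83.6 CPM in the first pool, and at 354 CPM against at most 31.9 CPM in the third. Ccne1 had 54.9 CPM in cluster 0 of the first pool, which lay within the 12.5 to 66.9 CPM of clusters 1 to 3. The 66.9 CPM belonged to the 7 cells of cluster 1, with 78.8% of the counts from 1 cell. In the third pool Ccne1 had 41.1 CPM from 1 cell in cluster 0, against at most 19.1 CPM, of which 99.5% came from 1 cell. Ccne2 had 21.1 CPM in the first pool, 90.4% of it from 1 cell, and 12.0 CPM from 1 cell in the third, against at most 5.40 CPM and 9.84 CPM. Within these pools, then, cluster 0 was highest for Mki67, whereas the E-type values rested largely on single cells in cluster 0 and in the clusters set against it, and gave no firm order. Among the 3 mESC clusters at this resolution, Ccne1 was the only gene of the set past 2-fold between the highest and lowest in the ratio of CPM + 1. It had 377, 228 and 147 CPM. On this scale genes near the floor pass less easily than in plain CPM. The highest level was in cluster 0, which held 83 cells of the first pool among its 85.

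**Figure D5:**
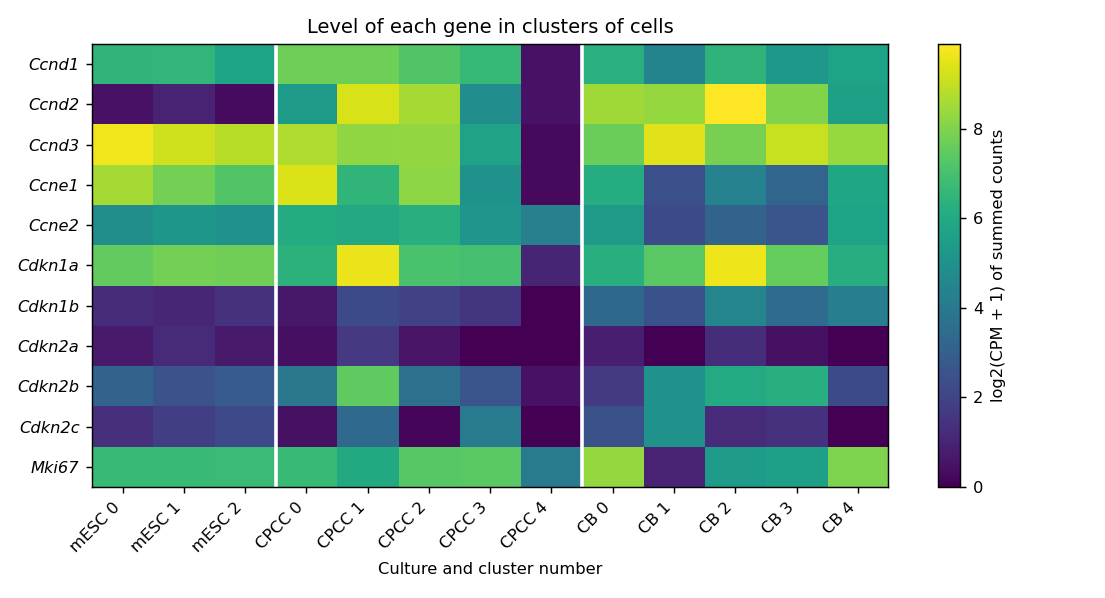
Level of each of the 10 genes and of Mki67, as log2(CPM + 1) of summed counts, in the clusters of mESC (0 to 2), CPCC (0 to 4) and CB (0 to 4). CPCC cluster 1 and CB cluster 2 have the highest levels of Cdkn1a, and CPCC cluster 0 has the highest level of Ccne1.

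The partners of these genes in the pathway follow, by lists whose members were chosen by function. Their counts stand beside the shares of all genes past 2-fold, which were 17.5% higher and 8.36% lower in CPCC against mESC, 30.8% and 14.0% in CB against mESC, and 21.3% and 9.44% in CB against CPCC. Of 10 G1 kinases and their regulators, 0 were past 2-fold in CPCC against mESC, 1 was lower in CB against mESC (Cdc25a, a phosphatase that activates Cdk2, at 59.0 and 19.4 CPM) and 0 were past it in CB against CPCC. The medians were -0.21, -0.48 and -0.19, beside -0.01, 0.29 and 0.22 for all genes. Cdk4, which D-type cyclins activate, had 702 CPM in mESC and 607 CPM in CB. Of 13 genes of the retinoblastoma family and E2F, 3 were higher in CPCC than in mESC and 0 lower, 2 were higher and 1 lower in CB than in mESC, and 1 was higher and 3 lower in CB than in CPCC. Rb1 was higher in both, with 4.99 CPM in mESC against 13.0 CPM in CPCC and 21.0 in CB, and so was Rbl2, at 4.03, 9.14 and 25.6 CPM. E2f1, an activating E2F, was lower in CB (18.3 CPM) than in mESC (45.4 CPM). Of 15 genes of the p53 pathway, 5 were higher and 1 lower in CPCC against mESC, 3 were higher and 2 lower in CB against mESC, and 2 were higher and 7 lower in CB against CPCC. Ccng1 had 114, 347 and 151 CPM and Mdm2, the p53 antagonist and target, had 99.1, 231 and 86.0 CPM in mESC, CPCC and CB. Trp53 was lower in CB (104 CPM) than in mESC (372 CPM).

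Genes that ERK signalling induces were compared because mESC grew with a MEK inhibitor and D-type cyclins respond to this pathway. Of 7 such genes listed in both tables, 5 were higher and 1 lower in CPCC than in mESC, and the same numbers held in CB. Of 8 listed in CPCC and CB, 2 were higher and 3 lower in CB. Dusp6, an ERK phosphatase, had 3.02 CPM in mESC against 112 CPM in CPCC and 164 in CB, and Myc had 3.74, 58.5 and 20.3 CPM. Etv5 went the other way, at 195, 81.1 and 26.3 CPM. Over cells, Ccnd1 had a rho of at least 0.2 with 3 of 8 of these genes in CPCC and with 0 of 6 in CB, where 14.4% and 11% of all genes reached it. For Ccnd2 these were 1 of 8 and 0 of 6, where 19.8% and 2.10% of all genes did. Medium and culture cannot be told apart in this design. Of 7 Polycomb genes, which encode repressors known to hold the INK4 locus silent, 0 were higher and 1 lower in CPCC than in mESC (Suz12, at 197 CPM in mESC and 65.5 CPM in CPCC), 2 were higher and 3 lower in CB than in mESC, and 2 were higher and 2 lower in CB than in CPCC. The 2 of 7 higher in CB than in mESC were near the 30.8% of all genes.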

How the data were processed

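Single-cell cDNA libraries of mESC, CPCC and CB (1 sample each), made on the Fluidigm C1 system, were sequenced by the authors, who aligned the reads with STAR 2.7 to mm10 and made gene count tables in Partek Flow. The deposited CPCC table holds whole-number counts per gene and cell. In the deposited mESC and CB tables, 26.4% and 27.4% of the values above 0 lie more than 0.001 from a whole number, so these are estimated counts (expected counts), and the counting method and its use of strand are not given in the sources used here. Of the CPCC rows, 208 without a gene name held no counts and 23 whose names had become dates held 0.139% of the counts, and both were left out, as were 2 columns that no label names.

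Counts were summed over cells and expressed as CPM, and ratios used a pseudocount of 1 CPM. Detection was compared after thinning to 430000 counts, with 22 shallower mESC, 18 CPCC and 22 CB cells set aside. Spearman's rho used cells with at least 100000 counts and genes found in at least 25% of them. Likeness was the mean rho within pools, with up to 3 genes named per gene where it reached 0.4. Clusters came from Seurat 5.3.0 (10 principal components, resolution 0.6). Positions and lengths came from GENCODE vM21 and promoter windows from RefSeq (GRCm38.p6), in which 3 of the 10 genes had no entry and are named only: Ccnd1, Ccnd2 and Ccne2. Scripts ran in Python 3.11.15 (numpy 2.4.6, pandas 2.3.3, scipy 1.17.1, matplotlib 3.10.9) and R 4.3.3, and the ratio and rho steps were tested on simulated data. Alternatives were TMM factors (edgeR 4.0.16), DESeq2 1.42.0 size factors, equal weight per cell, other pseudocounts, filters and clusterings, each pool left out, and, added after the data were seen, the cell with the most counts of a gene left out. No count model was tested, since each culture is 1 sample. Every one of the 10 genes is described, and the genes and lists were chosen with earlier results of these data known.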

Additional observations from a re-analysis of the deposited data

How the results depend on the processing

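Pools are not replicates, and leaving 1 out in turn shows only how far a value leans on it. The number of the 10 genes past 2-fold then ranged from 3 to 6 for CPCC against mESC (2 to 5 higher, 0 to 1 lower), from 5 to 6 for CB against mESC (3 to 4 higher, 1 to 2 lower) and from 5 to 6 for CB against CPCC (1 to 3 higher, 3 to 4 lower). Of genes with a rho of 0.2 or beyond with Mki67, mESC had 0 to 1 (0 to 1 at -0.2 or below), CPCC 4 to 5 (3 to 4 at -0.2 or below) and CB 0 to 2 (0 to 2 at -0.2 or below). A pseudocount of 10 CPM left 3 genes past 2-fold in CB against mESC, 2 of them higher, and 0 higher in CB against CPCC. With the same weight for every cell, 2 genes were higher in CB against CPCC. TMM and DESeq2 factors changed no count by more than 1.5 times. Relations in CB were the least stable: 0 genes passed a rho of 0.2 with all cells, with the mean of the rho within pools or with Pearson's r, and 1 did (at -0.2 or below) after thinning. Among cells with Mki67, 2 genes passed in CPCC and 0 were at 0.2 or above, and in CB 1 passed, at 0.2 or above, and 0 were at -0.2 or below. There the sign turned for Ccnd2 (0.0279) and Ccne1 (-0.0556) in CPCC and for Ccne1 (-0.1297), Ccne2 (-0.1307) and Cdkn1a (0.014) in CB. The cause was not tested. Over all alternatives, 154 values of these counts stayed within 1.5 times of the value reported and 35 did not. No paired analysis was possible because each culture is 1 sample and no label pairs pools across cultures. Depth limits Cdkn2a, with 207 to 322 counts per culture.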
